A study of Homo sapiens with 24 samples.

Results

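The genes described are the cytosolic ribosomal protein genes, 85 of the 60675 genes in the count files. They were chosen by symbol, as protein-coding genes off chromosome Y named RPL or RPS followed by a number (with the suffixes A, X, L or L1), together with RPLP0, RPLP1, RPLP2 and RPSA. Of them, 53 carry an RPL symbol and belong to the large (60S) subunit or are paralogs of such genes, and 32 carry an RPS symbol and belong to the small (40S) subunit. Among the 85 are 8 paralogs of other members, namely RPL3L, RPL7L1, RPL10L, RPL22L1, RPL26L1, RPL36AL, RPL39L and RPS27L, which leaves 77 other members. No measured value entered this symbol rule, but the list was chosen with earlier results of these data known. FAU and RACK1 encode ribosomal proteins too, but their symbols lie outside the pattern.

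The cytosolic ribosome translates the mRNAs of the nuclear genome, and its proteins are made in matched amounts because nearly all are incorporated once per subunit. Ribosomal protein mRNAs are among the most abundant in a growing cell and carry a terminal oligopyrimidine (TOP) motif, a C at the cap followed by a run of C and T, through which mTORC1 and LARP1 control their translation. In prostate cancer cells, growth and androgen receptor signalling draw on this protein synthesis capacity. METTL3 is the catalytic subunit of the complex that deposits N6-methyladenosine (m6A) on mRNA.

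RNA-seq was performed on 24 libraries of 2 prostate cancer cell lines, LNCaP:C42 (also written LNCaP:C4-2), a castration-resistant derivative of LNCaP, and 22Rv1, a castration-resistant line that expresses androgen receptor splice variants. Every culture was grown in phenol red-free medium with charcoal-stripped serum and received either a pool of non-targeting siRNAs (siSCR) or a pool of METTL3 siRNAs (siMETTL3), and after 48 h a second transfection together with either 1 nM R1881, a synthetic androgen, or ethanol (vehicle) for 72 h. The 8 groups are thus siSCR with vehicle, siSCR with R1881, siMETTL3 with vehicle and siMETTL3 with R1881 in each line, with 3 libraries a group. Replicates are numbered in the sample titles but are not described as separate cultures, so p-values measure the spread between these libraries, which may be technical. In bulk RNA, fewer cells that express a gene and less of its RNA per cell cannot be told apart.

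The libraries held 15716224 to 21306019 counts assigned to genes, with a median of 17671700. METTL3 was lower in the siMETTL3 libraries in each of the 4 comparisons, with no overlap. Its mean fell from 27 ± 2.07 to 17.7 ± 1.26 CPM (counts scaled to the library size; SD, n = 3) in LNCaP:C42 with vehicle and from 53.9 ± 1.75 to 23.7 ± 2.06 CPM in 22Rv1 with R1881. KLK3, the androgen receptor target that encodes PSA, rose from 18.5 ± 3.06 to 313 ± 25.5 CPM with R1881 in siSCR LNCaP:C42 and was at 7.10 ± 0.383 and 7.02 ± 0.819 CPM without and with R1881 in siSCR 22Rv1. The luminal markers were present, and of 9 leukocyte, fibroblast and endothelial markers, 5 in LNCaP:C42 and 6 in 22Rv1 had at most 3 counts in every library (summed level of the list 44.9 to 78.8 and 15.1 to 29.5 CPM). In 5 libraries, the dependence of the counts on the GC content of transcripts differed from both other libraries of the group by more than 0.1 log2 units per 10 percentage points of GC. These were siSCR vehicle replicate 3, siSCR R1881 replicate 1 and siMETTL3 vehicle replicate 1 of LNCaP:C42, and siSCR vehicle replicate 3 and siMETTL3 vehicle replicate 1 of 22Rv1. Counts of ribosomal protein genes are therefore given with and without them for the comparisons within a line and for the difference of the R1881 response between lines.

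To show the TOP motif of the members that the comparisons turn on, 30 bases around the annotated transcription start, 15 before it and 15 from it onward, are printed 5′ to 3′ in the direction of transcription. The sequences are those of RefSeq for GRCh38.p14, and capitals mark the run of C and T that crosses the start, which is base 16.
RPL26 (chr17:8383179-8383208, minus strand): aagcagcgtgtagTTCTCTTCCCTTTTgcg
RPL36 (chr19:5690280-5690309, plus strand): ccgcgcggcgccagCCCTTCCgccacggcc
RPL36AL (chr14:49620612-49620641, minus strand): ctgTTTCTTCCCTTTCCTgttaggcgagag
RPL41 (chr12:56116618-56116647, plus strand): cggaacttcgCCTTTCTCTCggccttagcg
RPS7 (chr2:3575245-3575274, plus strand): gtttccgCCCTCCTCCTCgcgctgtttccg
RPS23 (chr5:82278340-82278369, minus strand): tcctgcggtgCTTCTCTCTTTCgctcaggc
RPL22L1 (chr3:170870181-170870210, minus strand): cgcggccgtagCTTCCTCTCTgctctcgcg
RPL26L1 (chr5:172958714-172958743, plus strand): agtcttccaggggtcggcgaacgaaacgcg
RPS27L (chr15:63157463-63157492, minus strand): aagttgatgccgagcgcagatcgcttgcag

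The paralogs RPL26L1 and RPS27L had no such run, whereas the paralogs RPL22L1 and RPL36AL and the other members shown had one. In RPL36AL and RPS7 most of the run lay before the start, and both lacked the stricter pattern of a C followed by 4 pyrimidines counted below. RefSeq promoters were matched to 68 of the 85 members, using the first start listed for a symbol. A C at the start followed by 4 bases that were each C or T, read on the gene's own strand only, was present in 43 of these 68 (63.2%) and in 4.04% of all 27305 promoters. Among members outside the paralogs, 42 of 62 (67.7%) had it, against 1 of 6 paralogs (16.7%), RPL22L1. A run of at least 8 bases of C or T anywhere in the window, which can include the first pattern, was present in 49 of 68 members (72.1%) and in 13.4% of all promoters. A match in these letters is a description of the annotated start and was not measured in these cells.

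Ribosomal protein genes together took between 4.75% and 6.17% of all counts in LNCaP:C42 libraries and between 5.97% and 7.70% in 22Rv1 libraries. In LNCaP:C42 the share was 5.63 ± 0.167% with siSCR and vehicle, 5.08 ± 0.475% with siSCR and R1881, 5.83 ± 0.479% with siMETTL3 and vehicle and 5.46 ± 0.225% with siMETTL3 and R1881 (SD, n = 3). The ranges of all 4 groups overlapped. In 22Rv1 the share was 6.59 ± 0.258% with siSCR and vehicle, 6.71 ± 0.0171% with siSCR and R1881, 6.59 ± 0.575% with siMETTL3 and vehicle and 7.66 ± 0.0368% with siMETTL3 and R1881. The 3 libraries of 22Rv1 with siMETTL3 and R1881, at 7.63% to 7.70%, lay above each of the other 21 libraries, of which the highest was at 7.10%. The same 3 libraries had the lowest share of counts in mitochondrially encoded genes, 3.93% to 4.24%, against 4.96% to 9.73% in the other 21. A link between the 2 shares was not tested.

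**Figure D1:**
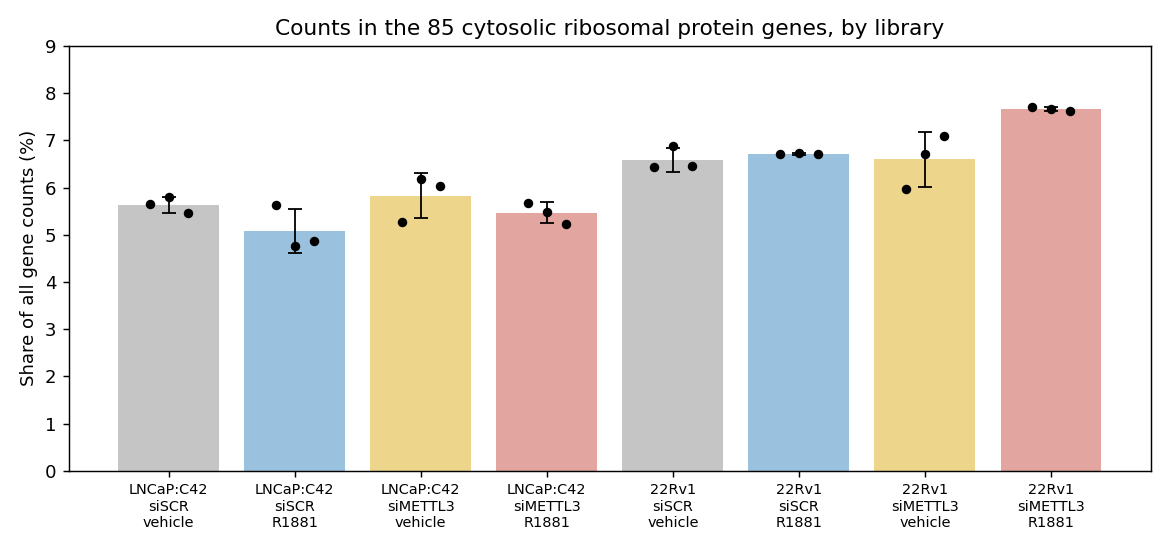
Share of all counts assigned to the 85 ribosomal protein genes (percent), by cell line, siRNA pool and treatment; bars are means, error bars SD and points the 3 libraries of a group. The siMETTL3 R1881 libraries of 22Rv1, at 7.63% to 7.70%, are the highest of all 24.

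Levels between genes were compared per kilobase of the length given in the count files. On this scale RPS27 (899 CPM per kb), RPL13A (889), RPS12 (836), RPS2 (798) and RPLP0 (739), which encode 40S and 60S proteins including the stalk base P0, were highest on average over both lines. The lowest were RPL3L (0.609 CPM per kb), a paralog of RPL3 known from striated muscle, RPL10L (1.42), a testis-associated paralog of RPL10, and RPL36A (1.90), RPS10 (2.69) and RPL17 (3.63), which encode ubiquitous ribosomal proteins. The highest of the 77 members outside the paralogs was 473-fold above the lowest, although their proteins are present once per ribosome or nearly so. RPL17 and RPS10 shared 96.9% and 80.4% of the exon bases of their canonical transcript with the read-through genes RPL17-C18orf32 and RPS10-NUDT3, and RPL36A shared 43.8% with RPL36A-HNRNPH2. Fragments that fall on more than one gene were left out of the counts, so the levels of RPL17, RPS10 and RPL36A are uncertain. Per kilobase of the canonical transcript instead, RPLP0 (2675), RPS27 (2416) and RPS18 (2344) led, and 6 of the 10 highest were shared by both scales.

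The conditions were next compared with the spread between replicates. In LNCaP:C42, the median member varied by 0.13 log2 units (SD) between replicates of a condition and by 0.10 (SD) between the means of the 4 conditions. These means also carry the spread between replicates. The SD between them and the shares of variation below therefore overstate the differences between conditions. Differences between conditions made up a median of 38.1% of the variation of a member, against 54.0% over all genes tested in that line. They made up more than 50% for 29 of 84 members (34.5%), against 56.0% of all genes. In 22Rv1 the order was the other way round, with 0.10 log2 units between replicates and 0.17 between conditions. There, 80 of 84 members (95.2%) had more than 50% of their variation between conditions, against 64.9% of all genes, and the median share was 74.3% (62.0% over all genes). These values are of log2 CPM with 0.5 added, which lowers the spread of genes at low levels, such as RPL3L in 22Rv1. On this measure RPL26 varied most between replicates in both lines (0.59 and 0.53 log2 units). It was followed by RPL36, RPL8, RPL41 and RPL36AL in LNCaP:C42 (0.47, 0.42, 0.42 and 0.41), and these varied by 0.32, 0.29, 0.28 and 0.28 in 22Rv1. RPS7 stood at the other end in LNCaP:C42, with 0.03 between replicates.

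RPL26 encodes a 60S protein known also to bind p53 mRNA, and its gene lies at chr17:8377520-8383213 (GRCh38, minus strand). In LNCaP:C42 it was at 69.3, 64.7 and 40.4 CPM in the siSCR vehicle libraries, 63.5, 32.5 and 29.3 with siSCR and R1881, 24.7, 76.8 and 76.2 with siMETTL3 and vehicle, and 77.6, 75.2 and 72 with siMETTL3 and R1881. In 22Rv1 the same groups were at 47.2, 45.3 and 25.5, then 36.6, 24.9 and 22.7, then 24, 62.7 and 72.9, and lastly 81.1, 95.7 and 83.9 CPM. In 3 groups of LNCaP:C42 and in both vehicle groups of 22Rv1, 1 library stood apart from the other 2, and these were the 5 libraries named above. RPL26 shared 65.3% of its canonical exon bases with an overlapping gene, whereas RPL8, RPL41 and RPL36AL shared none.

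RPL8 encodes a 60S protein close to the peptidyl transferase centre. It was at 1066, 1083 and 812 CPM with siSCR and vehicle in LNCaP:C42, at 1114, 618 and 625 with siSCR and R1881, at 668, 1452 and 1414 with siMETTL3 and vehicle, and at 1355, 1202 and 1087 with siMETTL3 and R1881. The odd library in each group was the same as for RPL26. The summed level of RPL8, RPL26, RPL36, RPL36AL and RPL41 in LNCaP:C42 was 1344 CPM in siMETTL3 vehicle replicate 1 and 2998 and 2946 CPM in replicates 2 and 3. The GC trend of those libraries was -0.19, 0.13 and 0.14 log2 units per 10 percentage points. The part of the GC trend in the levels of these genes was not tested.

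**Figure D2:**
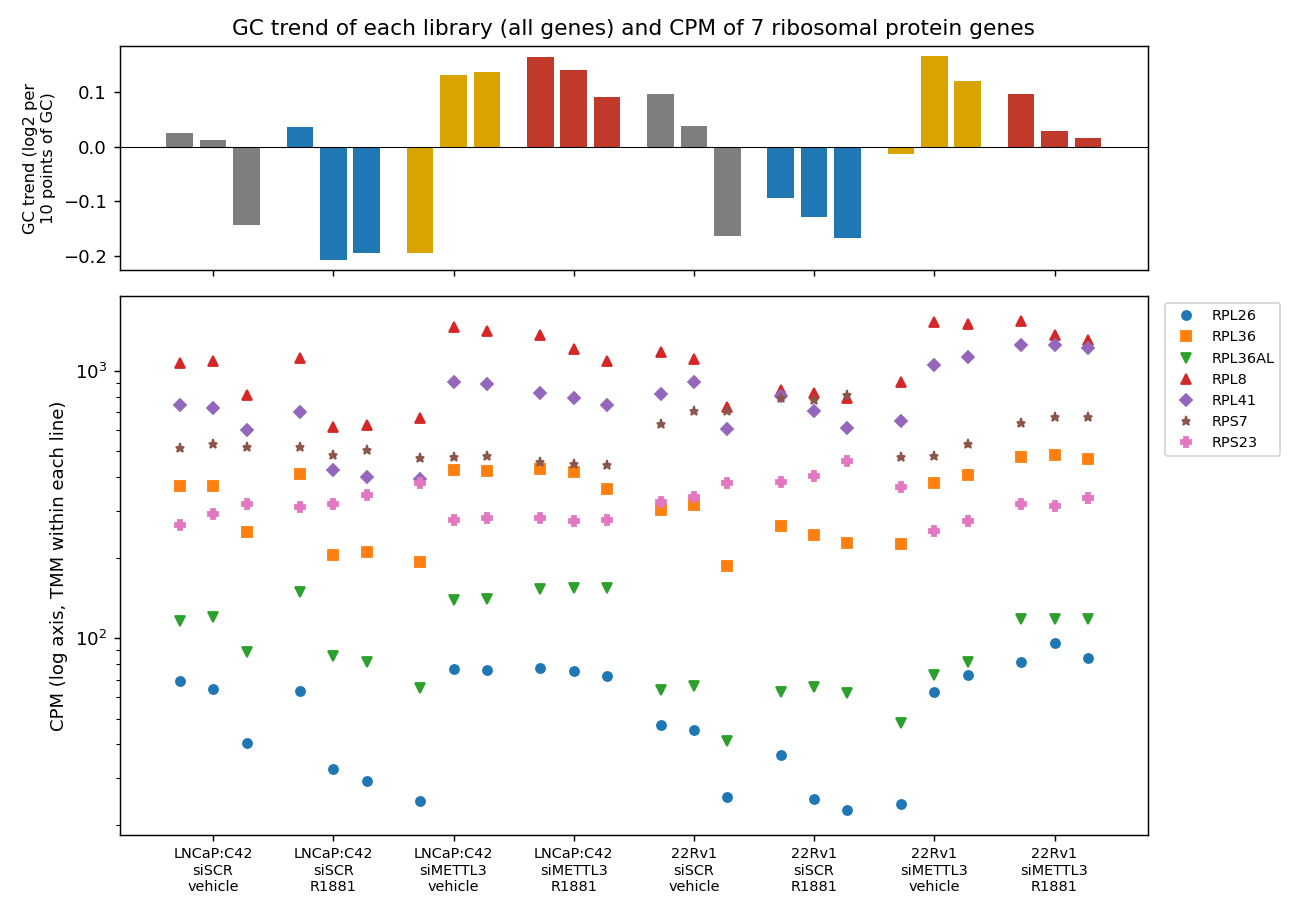
Upper panels, GC trend of each of the 24 libraries (log2 units per 10 percentage points of GC content); lower panels, CPM (log axis) of RPL26, RPL36, RPL36AL, RPL8, RPL41, RPS7 and RPS23 in the same libraries. In the siMETTL3 vehicle group of LNCaP:C42, replicate 1 has a trend of -0.19 and the lowest RPL26 (24.7 CPM), while RPS7 stays level.

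In 22Rv1 treated with siMETTL3, R1881 was accompanied by higher counts of most ribosomal protein genes. Of 84 members tested, 65 rose (77.4%) and 0 fell at an adjusted p under 0.05 (edgeR's quasi-likelihood test, Benjamini-Hochberg over 17865 genes, no fold requirement), against 16.8% of all genes tested that rose. DESeq2 called 62 higher and 0 lower, and at an unadjusted p under 0.05, 70 members (83.3%) differed, against 42.2% of all genes. The median log2 fold change of the members was 0.30, against 0.00 over all genes, and both subunits took part, with 41 of 52 large-subunit members (median 0.30) and 24 of 32 small-subunit members (median 0.29). The groups did not overlap for 74 members (88.1%), against 46.4% of all genes. Only RPL26 and RPL36AL rose by at least 1.5-fold (all genes 4.18%).

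RPL36AL, an autosomal paralog of the X-linked RPL36A, was at 47.9, 73.1 and 81.2 CPM with siMETTL3 and vehicle and at 118, 117 and 118 with siMETTL3 and R1881. All R1881 libraries lay above the vehicle libraries, and the log2 fold change was 0.80 ± 0.15 (SE, adjusted p = 0.000225). RPS29, a small zinc-binding 40S protein gene, was at 195, 245 and 307 CPM without and 365, 355 and 347 with R1881 (0.51 ± 0.10, adjusted p = 0.000522). RPS27L, which is known as a p53 target and a paralog of RPS27, was at 60.3, 62.3 and 69.0 CPM without and 95.1, 98.5 and 92.7 with R1881 (0.58 ± 0.07, adjusted p = 3.26e-06). These 3 genes kept their call in all 10 alternative fits and with any 1 library left out.

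RPL26 also rose in this comparison, by 0.71 ± 0.25 (adjusted p = 0.0370), but its vehicle libraries spread from 24 to 72.9 CPM, and the call was lost in 4 of the 6 fits that left out 1 library and in 3 of 10 other fits, with an adjusted p of up to 0.18. RPL27, a 60S gene, went from 427, 484 and 534 to 663, 658 and 648 CPM (0.45 ± 0.07, adjusted p = 6.46e-05). The stalk protein genes RPLP0 (0.26 ± 0.06), RPLP1 (0.20 ± 0.07) and RPLP2 (0.18 ± 0.06), and RPL5 (0.22 ± 0.08) and RPL11 (0.31 ± 0.09), whose products bind MDM2 with the 5S rRNA, all passed the test. Among the 19 members that did not pass were RPL3L, RPS15, RPL28, RPL36A, RPS26, RPL8, RPL7L1, RPL7A, RPS23, RPL17, RPL18, RPS6, RPS2, RPS9, RPS28, RPL39L, RPL23A and RPS10. Their median transcript GC content was 53.6%, against 46.8% for the 65 that rose and 47.5% over all members. The pattern of a C and 4 pyrimidines at the start was present in 35 of 54 members that rose and had a promoter (64.8%) and in 8 of 13 that did not pass (61.5%). Without the 2 libraries of 22Rv1 that stand apart, 67 members rose and 0 fell (21.1% of all genes rose), and leaving out any 1 library gave between 52 and 67 that rose, in fits where 12.8% to 15.8% of all genes rose.

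**Figure D3:**
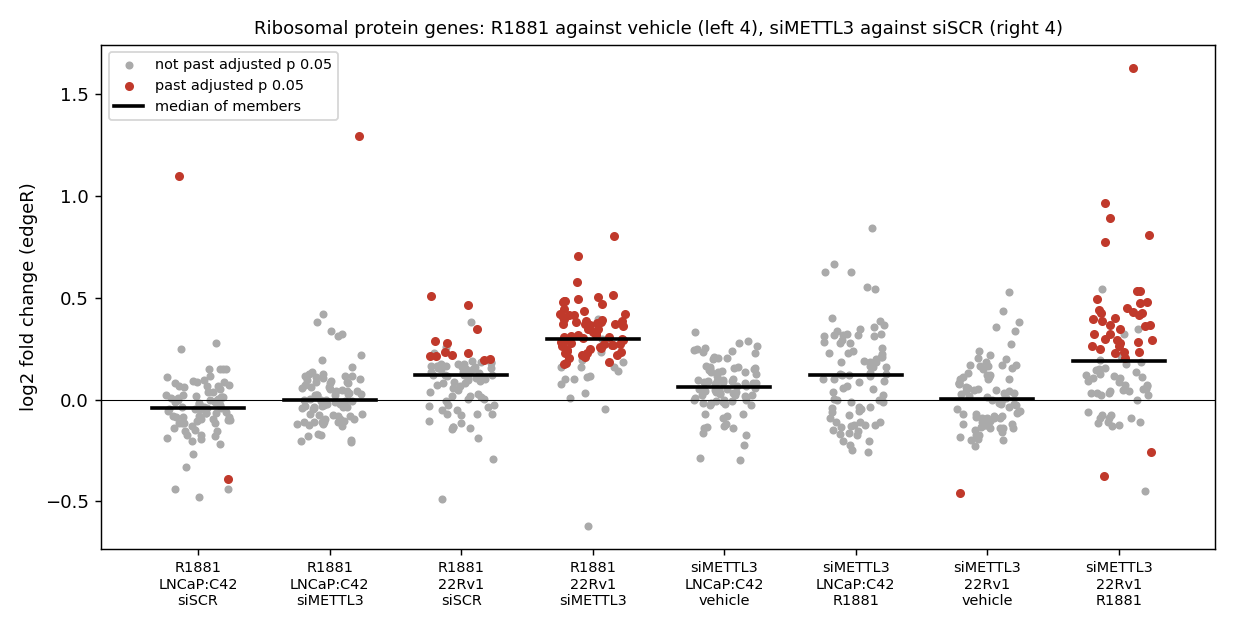
Log2 fold change of each ribosomal protein gene (points) in 8 comparisons within a line; red points passed an adjusted p of 0.05 and black lines are the medians of the members. With R1881 in siMETTL3 22Rv1, 65 of 84 points passed, all higher, around a median of 0.30.

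With siSCR, the same treatment of 22Rv1 gave fewer calls. Of 84 members, 12 rose (14.3%) and 0 fell, against 16.6% of all genes that rose, a share near the background. DESeq2 called 13 higher and 0 lower, and at an unadjusted p under 0.05, 27 members (32.1%) differed, fewer than the 42.6% of all genes. The median log2 fold change was 0.12 against 0.00 over all genes, and the groups did not overlap for 33 members (39.3%), against 43.5% of all genes. The 12 that rose, which are all among the 65 above, were RPL7, RPS27, RPL23, RPS7, RPL12, RPS13, RPL4, RPL32, RPL15, RPS27L, RPL22L1 and RPL26L1.

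RPL26L1, a paralog of RPL26, was at 22.2, 26.4 and 22.6 CPM with siSCR and vehicle and at 35.8, 32.8 and 32.5 with siSCR and R1881 (0.51 ± 0.09, adjusted p = 0.000184). RPL22L1, the paralog of RPL22, was at 137, 151 and 185 CPM without and 200, 210 and 243 with R1881 (0.47 ± 0.10, adjusted p = 0.000761). RPS27L went from 67.0, 67.4 and 72.2 to 89.8, 83.4 and 89.9 CPM (0.35 ± 0.07, adjusted p = 0.00104). RPL15, a core 60S protein gene, went from 1738, 1871 and 1873 to 2208, 2197 and 2294 CPM (0.29 ± 0.06, adjusted p = 0.000982). For each of these genes the R1881 libraries lay above all vehicle libraries. The number of members called depended on single libraries. Without siSCR vehicle replicate 1, 5 members rose (all genes 11.6%), and without siSCR vehicle replicate 3, which is among the libraries that stand apart, 23 rose and 5 fell (all genes 20.5% and 18.7%). Without both libraries of 22Rv1 that stand apart, 39 rose and 12 fell (all genes 45.5% in either direction). The siSCR vehicle libraries left had GC trends of 0.10 and 0.04, against -0.17 to -0.09 with siSCR and R1881. The part of the GC trend in these counts was not tested.

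Whether the response to R1881 differed between siRNA pools was tested as an interaction. In 22Rv1, 0 of 84 members passed (edgeR, smallest adjusted p = 0.802), as did 0 with DESeq2, and 3 of 17865 genes did (0.0168%). At an unadjusted p under 0.05, 37 members (44%) differed, against 6.16% of all genes, and 76 of 84 (90.5%) had a positive difference, against 48.9% of all genes, with a median of 0.20 against -0.00 over all genes. The difference for RPL27 was 0.27 ± 0.10 and for RPL26 1.19 ± 0.37. The larger number of calls with siMETTL3 is thus not shown, gene by gene, to be a larger response. Without siSCR vehicle replicate 3 there were 2 calls (all genes 0.164%), and without both libraries that stand apart 14 (all genes 1.18%), all of them positive.

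In 22Rv1 with R1881, ribosomal protein genes also differed between siMETTL3 and siSCR. Of 84 members, 37 rose (44%) and 2 fell (2.38%) with siMETTL3, against 8.93% and 7.28% of all genes. The median log2 fold change was 0.19, against -0.02 over all genes, and the groups did not overlap for 64 members (76.2%), against 42.8% of all genes. Those higher were 23 of 52 large-subunit and 14 of 32 small-subunit members, and both lower members belonged to the small subunit. The 5 that rose by at least 1.5-fold (all genes 2.3%) were RPL26, RPL36, RPL36AL, RPL41 and RPL8, the genes that varied most between replicates elsewhere. Leaving out siSCR R1881 replicate 2 gave 24 higher and 1 lower (all genes 3.28% and 2.19%), and leaving out siMETTL3 R1881 replicate 1 gave 20 and 0 (all genes 2.75% and 1.63%).

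RPL26 was at 36.6, 24.9 and 22.7 CPM with siSCR and at 81.1, 95.7 and 83.9 with siMETTL3 (1.63 ± 0.27, adjusted p = 0.00109). RPL36, a 60S protein gene with a short TOP run, was at 263, 242 and 226 CPM with siSCR and 477, 484 and 466 with siMETTL3 (0.97 ± 0.17, adjusted p = 0.00156). RPL41, which encodes the very small basic peptide at the subunit interface, was at 805, 704 and 608 CPM with siSCR and 1249, 1243 and 1215 with siMETTL3 (0.81 ± 0.15, adjusted p = 0.00228). In all 3 cases the lowest siMETTL3 library was above the highest siSCR library. RPL36AL (62.9, 65.5 and 62.3 against 118, 117 and 118 CPM) differed by 0.89 ± 0.15, and RPL8 (845, 825 and 792 against 1540, 1364 and 1299 CPM) by 0.77 ± 0.15.

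The GC trend of the libraries differed between the same groups, from -0.17 to -0.09 log2 units per 10 percentage points with siSCR and from 0.02 to 0.10 with siMETTL3. With an offset for GC content, 39 members rose and 3 fell (all genes 6.44% and 7.89%), and these 5 genes rose by 1.69 (RPL26), 0.72 (RPL36), 1.00 (RPL36AL), 0.82 (RPL41) and 0.49 (RPL8). The libraries of this comparison are not among the 5 that stand apart, but these affect the shared estimate of the spread, and without them 47 members rose and 3 fell (all genes 31.9% in either direction).

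RPS7 and RPS23 were the members that fell. RPS7 encodes a 40S protein that also binds MDM2, and RPS23 a 40S protein of the decoding centre. With R1881, RPS7 was at 789, 780 and 809 CPM with siSCR and 639, 674 and 674 with siMETTL3 (-0.26 ± 0.07, adjusted p = 0.0131). RPS23 was at 384, 405 and 459 CPM with siSCR and 318, 311 and 335 with siMETTL3 (-0.37 ± 0.10, adjusted p = 0.0204). The groups did not overlap for either gene, but the call was lost in 2 of 6 fits that left out 1 library for RPS7 and in 4 of 6 for RPS23, with adjusted p-values of up to 0.0855 and 0.118.

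RPS7 was also the 1 member of 84 that was called with siMETTL3 and vehicle in 22Rv1 (all genes 0.56%). It was at 633, 706 and 708 CPM with siSCR and 476, 481 and 531 with siMETTL3, a log2 fold change of -0.46 ± 0.07 (adjusted p = 0.000796), and kept the call with any 1 library left out. The call was lost in 1 of 10 other fits, with only the groups compared in the fit (adjusted p = 0.0942). Its exons overlap no other gene over the canonical transcript. In this comparison 0 members were higher by edgeR and 0 by DESeq2, and 15 members (17.9%) differed at an unadjusted p under 0.05, against 14.6% of all genes. The median log2 fold change was 0.00, the same as over all genes. Without siSCR vehicle replicate 1, RPS7 and 1 other member were lower (all genes 1.02%). Without siMETTL3 vehicle replicate 1, 16 members were higher and 2 lower (all genes 4.02% and 2.69%), and without both libraries that stand apart 17 were higher and 3 lower (all genes 6.11%). The vehicle libraries left in the latter fit had GC trends of 0.10 and 0.04 with siSCR and 0.17 and 0.12 with siMETTL3. The part of the GC trend in these counts was not tested.

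In LNCaP:C42, siMETTL3 gave 0 called members with vehicle (all genes 1.56%) and 0 with R1881 (all genes 0.937%) by edgeR's test. DESeq2 called 0 and 3. At an unadjusted p under 0.05, 11 members (13.1%) differed with vehicle and 25 (29.8%) with R1881, shares near the 16% and 28.6% of all genes. The medians were 0.06 and 0.12 against 0.00 and 0.00 over all genes. RPLP2, an acidic stalk protein gene, had the smallest p with vehicle (0.29 ± 0.09, adjusted p = 0.135). With R1881, RPL26 had a difference of 0.84 ± 0.35 (adjusted p = 0.137), carried by siSCR values of 63.5, 32.5 and 29.3 CPM against 77.6, 75.2 and 72. RPS7, which fell in 22Rv1, was at 516, 534 and 517 CPM with siSCR and 471, 475 and 478 with siMETTL3 in the vehicle libraries, with no overlap and an adjusted p of 0.366.

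The 0 counts in LNCaP:C42 depended on the libraries that stand apart. Without siSCR R1881 replicate 1, 26 members were higher and 1 lower with siMETTL3 in the presence of R1881 (all genes 11.5% and 9.57%), and without siMETTL3 vehicle replicate 1, 3 were higher with vehicle (all genes 2.36%). Without the 3 libraries of LNCaP:C42 that stand apart, 44 members were higher and 11 lower with R1881 (all genes 42.7%), and 17 higher and 1 lower with vehicle (all genes 8.88%). The siSCR R1881 libraries left had GC trends of -0.21 and -0.19, against 0.09 to 0.16 with siMETTL3 and R1881. With vehicle, the trends left were 0.03 and 0.01 with siSCR and 0.13 and 0.14 with siMETTL3. The part of the GC trend in these counts was not tested.

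Few members were called with R1881 in LNCaP:C42 in the fit of all 12 libraries of the line. That number depended on the libraries that stand apart, as given below. With siSCR, 1 of 84 rose and 1 fell, 2.38% against 24.8% of all genes in either direction, and the median was -0.04 against -0.03 over all genes. With siMETTL3, 1 rose and 0 fell, 1.19% against 16.6% of all genes, and DESeq2 called 3. At an unadjusted p under 0.05, 6 and 5 members differed (7.14% and 5.95%), against 36.1% and 29.4% of all genes. The gene that rose with either pool was RPL3L, which was also the 1 member past 1.5-fold in each (all genes that rose past 1.5-fold 7.39% with siSCR and 5.09% with siMETTL3).

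RPL3L was at 2.53, 1.16 and 1.26 CPM with siSCR and vehicle and 4.22, 3.05 and 3.34 with siSCR and R1881 (1.10 ± 0.27, adjusted p = 0.00706). With siMETTL3 it was at 1.65, 1.35 and 1.51 CPM without and 3.73, 3.46 and 3.87 with R1881 (1.29 ± 0.27, adjusted p = 0.00348). The groups did not overlap with either pool and the call held in all 10 alternative fits, but the level rests on 23 to 77 counts a library. RPL3, the parent, was at 1939 to 2453 CPM over the 12 libraries of the line. RPS27L fell with siSCR, from 57.7, 51.6 and 49.8 to 41.8, 38.9 and 40.8 CPM (-0.39 ± 0.10, adjusted p = 0.00829), a call that was lost without siSCR vehicle replicate 1 (adjusted p = 0.0582), when 1 member rose and 0 fell (all genes 16.4% in either direction). With siMETTL3, RPS27L was at 60.7, 52.3 and 55.7 CPM without and 54.3, 48.7 and 52.4 with R1881, which overlap.

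Without siSCR R1881 replicate 1, 2 members rose and 5 fell with R1881 in siSCR LNCaP:C42 (all genes 12.2% and 11.3%), and without siMETTL3 vehicle replicate 1, 1 rose and 1 fell with siMETTL3 (all genes 9.06% and 8.32%). Without the 3 libraries of the line that stand apart, 5 rose and 34 fell with siSCR (all genes 41.9%), and 3 rose and 9 fell with siMETTL3 (all genes 28.8%). The siSCR libraries left had GC trends of 0.03 and 0.01 with vehicle and -0.21 and -0.19 with R1881. The part of the GC trend in these counts was not tested. The interaction of R1881 and siMETTL3 in LNCaP:C42 gave 0 called members and 0 called genes (0%) by edgeR's test, 0 members with DESeq2 and 0 members at an unadjusted p under 0.05 (all genes 12.4%). Without the 3 libraries that stand apart, 13 members had a positive interaction (all genes 5.6%).

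The lines were compared directly in a fit of all 24 libraries. The response to R1881 with siSCR was larger in 22Rv1 than in LNCaP:C42 for 3 of 85 members (3.53%, against 16.8% of all genes in either direction) and smaller for 0, by edgeR and by DESeq2, and 10 (11.8%) differed at an unadjusted p under 0.05, against 28.9% of all genes. The 3 called by edgeR were RPS27L (difference 0.74, adjusted p = 6.37e-05), RPL26L1 (0.48, adjusted p = 0.00991) and RPS7 (0.27, with an adjusted p that rounds to 0.05 and lies just under it). RPS27L thus moved in opposite directions in the lines, and RPL26L1, at 49.4, 46.0 and 50.6 CPM without and 52.4, 47.8 and 47.9 with R1881 in LNCaP:C42, rose in 22Rv1. The call of RPS7 was lost with any of the 12 libraries left out and that of RPL26L1 without 22Rv1 siSCR vehicle replicate 3 (adjusted p = 0.0531), when 1 member, RPS27L, passed (all genes 16.1% in either direction). RPS7 was also not called in 4 of 10 other fits, with an adjusted p of up to 0.212. Without the libraries that stand apart 14 members had a larger response in 22Rv1 (all genes 8.57%). The response to siMETTL3 with vehicle differed between lines for 0 of 85 members by edgeR's test (all genes 0.458%), 1 by DESeq2 and 8 (9.41%) at an unadjusted p under 0.05, against 11.5% of all genes.

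At baseline, with siSCR and vehicle, the lines differed in many individual ribosomal protein genes. Of 85 members, 29 were higher (34.1%) and 25 lower (29.4%) in 22Rv1 than in LNCaP:C42, against 37.9% and 36% of all 19437 genes, shares slightly below the background. The median difference was 0.03 log2 units, the same as over all genes. Of the large-subunit members, 16 of 53 were higher and 16 lower, and of the small-subunit members 13 of 32 were higher and 9 lower. The split depends on the scaling, with 40 higher and 18 lower when only library size was used, which moved the median of all genes from 0.03 to 0.18. The groups did not overlap for 59 members (69.4%), against 75.4% of all genes.

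Past 1.5-fold, 10 members were higher in 22Rv1 (all genes 31.2%) and 14 lower (all genes 27.9%). Apart from RPL39L, those higher included RPS19, RPS3A, RPL14, RPS27A, RPS12, RPSA, RPL5 and RPL10. RPL10 was only just past the threshold (0.587, against 0.585 log2 units) and shared 53.6% of its canonical exon bases with another gene. RPS3A shared 24.1%. RPS19, the gene most often mutated in Diamond-Blackfan anaemia, was at 423, 430 and 419 CPM in LNCaP:C42 and 791, 882 and 875 in 22Rv1 (1.00 ± 0.08, adjusted p = 2.42e-11). RPS3A was at 630, 632 and 654 against 1095, 1241 and 1427 CPM (0.97 ± 0.09), and RPL14 at 528, 519 and 524 against 907, 1035 and 972 CPM (0.89 ± 0.08). RPS27A, which encodes ubiquitin fused to a 40S protein, differed by 0.75 ± 0.07. For each of these the lowest 22Rv1 library was above the highest LNCaP:C42 library.

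Those lower in 22Rv1 past 1.5-fold, apart from RPL10L, were RPL3L, RPS10, RPL26L1, RPL36AL, RPL7L1, RPL17, RPL22L1, RPL7A, RPL35, RPL38, RPL21, RPL27 and RPL35A. RPL7A, a 60S protein gene that hosts snoRNAs, was at 2065, 2138 and 1862 CPM in LNCaP:C42 and 1157, 1185 and 978 in 22Rv1 (-0.87 ± 0.12, adjusted p = 2.57e-07). RPL38 was at a mean of 283 ± 10.8 CPM in LNCaP:C42 and 163 ± 2.51 in 22Rv1 (-0.80 ± 0.10), and RPL35 at 685 ± 37.9 and 389 ± 6.53 CPM (-0.82 ± 0.12). RPS10 (-1.42 ± 0.27) and RPL17 (-0.90 ± 0.17) are among the genes whose exons are shared with read-through genes. RPL38 shared 59.0% of its canonical exon bases with another gene.

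**Figure D4:**
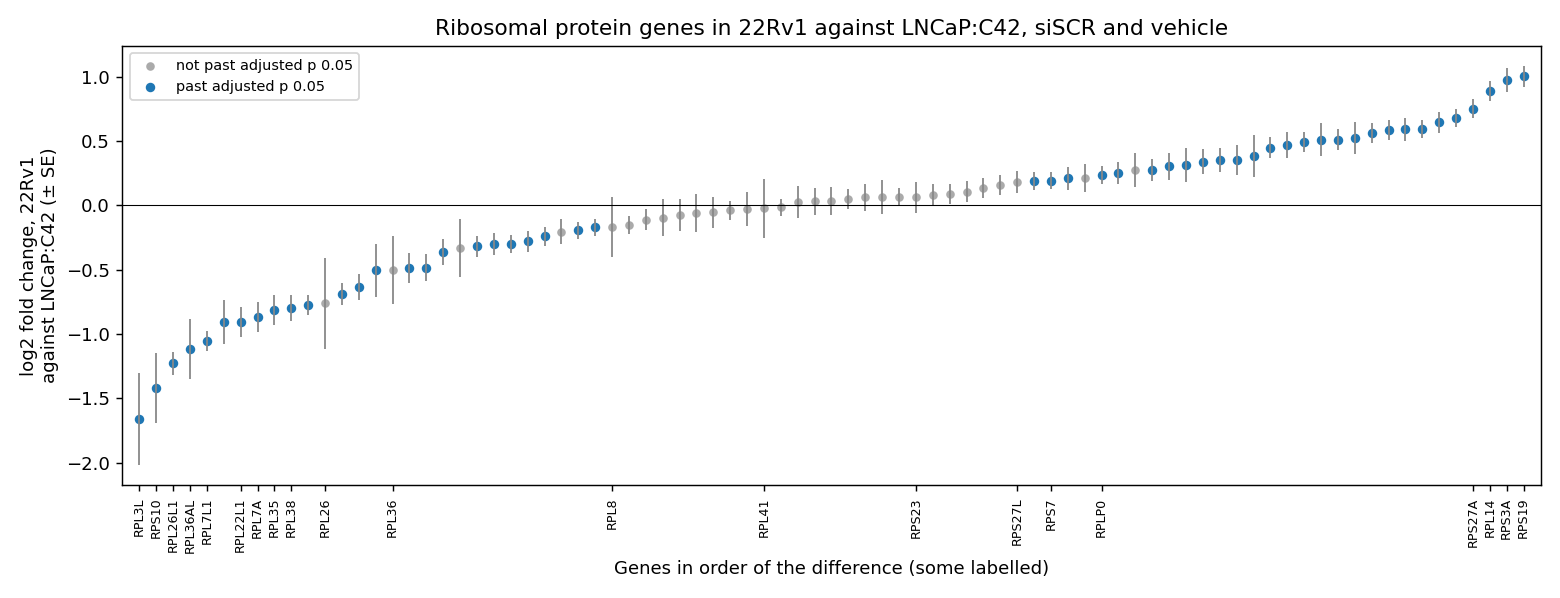
Log2 difference of 22Rv1 minus LNCaP:C42 with siSCR and vehicle for each member, ranked, with SE; RPL39L and RPL10L, which are at 0 counts in 1 line, are left out, and some genes described in the text are labelled. The members spread on both sides of 0 from RPL3L (-1.66) to RPS19 (1.00).

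The paralogs include the members that were at 0 counts throughout 1 line. RPL39L, the paralog of RPL39 known from testis and cancer cells, had 0 counts in all 12 libraries of LNCaP:C42 and 307 to 485 counts a library in 22Rv1. Its mean of 17.4 ± 1.38 CPM in 22Rv1 with siSCR and vehicle was at least 104-fold higher than a floor of 3 counts a library in LNCaP:C42. RPL10L was the reverse, with 26 to 52 counts a library in LNCaP:C42 (2.33 ± 0.478 CPM with siSCR and vehicle) and 0 in all 12 libraries of 22Rv1, at least 14.6-fold lower there. The median of the members is 0.03 with these genes at their fitted values or at their bounds, since they stay at the ends of the order. RPL39 itself was present in both lines, at 265 to 327 CPM in LNCaP:C42 and 201 to 278 in 22Rv1.

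RPL3L (-1.66 ± 0.36), RPL26L1 (-1.23 ± 0.09), RPL36AL (-1.11 ± 0.23), RPL7L1 (-1.06 ± 0.08) and RPL22L1 (-0.90 ± 0.12) were all lower in 22Rv1. RPL7L1, at 370, 367 and 409 CPM in LNCaP:C42 and 175, 182 and 194 in 22Rv1, made up 27.5 ± 0.622% of the counts of the RPL7 and RPL7L1 pair in LNCaP:C42 and 14.9 ± 0.902% in 22Rv1. RPL22L1 made up 48.1 ± 3.17% and 29 ± 3.77% of its pair with RPL22. RPL36AL took most of its pair with RPL36A in either line (92.8 ± 0.704% and 89.0 ± 3.32%). That share is uncertain, since RPL36A shared 43.8% of its canonical exon bases with a read-through gene. RPS27L made up 7.68 ± 0.878% and 6.0 ± 0.263% of its pair with RPS27. Fragments that mapped to several places were left out, so near-identical copies elsewhere can lower the counts of either gene of a pair.

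**Figure D5:**
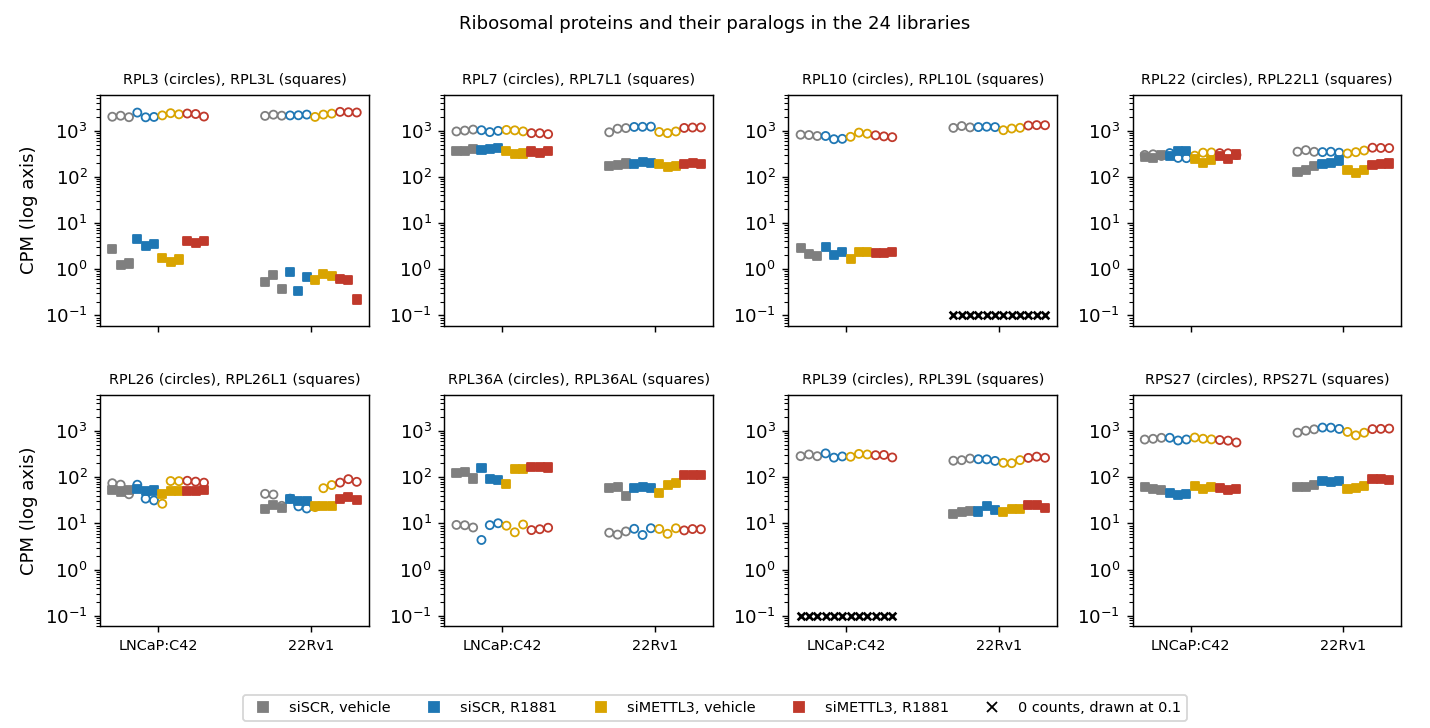
CPM (log axis) of the 8 paralogs and their parents in the 24 libraries, 1 panel a pair; libraries at 0 counts are drawn as crosses at 0.1. RPL39L is at 0 in all LNCaP:C42 libraries and RPL10L in all 22Rv1 libraries.

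Within 22Rv1, some paralog shares varied with the conditions. RPL26L1 made up 38.6 ± 7.69% of its pair with RPL26 with siSCR and vehicle, 55.1 ± 4.93% with siSCR and R1881, 35.6 ± 13.3% with siMETTL3 and vehicle and 29.6 ± 0.944% with siMETTL3 and R1881. Over the libraries of the line RPL26L1 lay between 22.2 and 38.9 CPM and RPL26 between 22.7 and 95.7. The share of RPL22L1 was 37.3 ± 2.69% with siSCR and R1881, above all siSCR vehicle libraries, and 30.8 ± 1.07% with siMETTL3 and R1881. RPL26 shared 65.3% of its canonical exon bases with an overlapping gene, and fragments on both genes were left out of its counts. It also varied most between replicates in this line (0.53 log2 units). The share of RPL26L1 in its pair, and its changes between conditions, are therefore uncertain. These shares are given as descriptions, with no test.

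Ribosomal proteins outside the symbol pattern were compared in the same fits. With R1881 in siMETTL3 22Rv1, FAU, which encodes a ubiquitin-like fusion of a 40S protein, rose by 0.40 ± 0.11 (adjusted p = 0.00576) and RACK1, the 40S scaffold protein, by 0.17 ± 0.06 (adjusted p = 0.0427). With siMETTL3 in R1881-treated 22Rv1, FAU rose by 0.43 ± 0.11 (adjusted p = 0.0106), and the difference of RACK1 (0.08 ± 0.06) did not pass.

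Other lists of the translation machinery were counted beside the members. In the 22Rv1 comparisons of R1881 with vehicle that these counts are read against, 16.6% of all genes rose and 16.5% fell with siSCR, and 16.8% rose and 16.3% fell with siMETTL3. With R1881 in 22Rv1, 25 of 48 ribosome biogenesis factors rose and 0 fell with siSCR, and 36 rose and 0 fell with siMETTL3 (52.1% and 75% that rose; medians 0.23 and 0.34, against 0.00 and 0.00 over all genes). UTP15, a component of the small-subunit processome, rose by 1.43 ± 0.09 and 1.66 ± 0.09, and GNL3, nucleostemin, by 0.53 ± 0.08 with siSCR. Of 15 genes of the RNA polymerase I machinery, 5 rose and 1 fell with siSCR and 10 rose and 1 fell with siMETTL3 (33.3% and 66.7% rose, 6.67% fell in each). Of 8 snoRNA host genes, 5 and 6 rose and 0 fell (62.5% and 75% rose). Of 17 other TOP mRNAs, 6 and 8 rose and 0 fell (35.3% and 47.1% rose), among them BTF3 (0.47 ± 0.06 and 0.56 ± 0.06), the nascent-chain complex subunit. Of 77 mitochondrial ribosomal protein genes, 24 rose and 1 fell with siSCR and 36 rose and 0 fell with siMETTL3 (31.2% and 46.8% rose). Of 18 genes of mTORC1 and TOP control, 5 rose and 2 fell and 8 rose and 1 fell (27.8% and 44.4% rose, 11.1% and 5.56% fell). MTOR itself, the kinase, rose by 0.81 ± 0.07 and 0.64 ± 0.07 in 22Rv1 and by 1.07 ± 0.10 and 1.12 ± 0.10 in LNCaP:C42.

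In R1881-treated 22Rv1, siMETTL3 was accompanied by 27 of 77 higher and 0 lower mitochondrial ribosomal protein genes and by 7 higher and 5 lower of 48 biogenesis factors, against 8.93% higher and 7.28% lower over all genes. The shares were 35.1% higher for the mitochondrial genes, and 14.6% higher and 10.4% lower for the biogenesis factors. RRP1B, a nucleolar biogenesis factor, was lower with siMETTL3 in all 4 comparisons, by -0.77 and -0.65 in LNCaP:C42 with vehicle and R1881 and by -0.88 and -0.94 in 22Rv1. In the other comparisons of siMETTL3 with siSCR, at most 1 gene of any of these lists was called. Between lines at baseline, 8 mitochondrial ribosomal protein genes were higher and 52 lower in 22Rv1 (10.4% and 67.5% of 77; median -0.56), against 37.9% and 36% of all genes.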

How the data were processed

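Trimming (Trim Galore), alignment (STAR, GRCh38) and counting per gene (featureCounts 1.5.0, Ensembl release 83) were done by the authors, who deposited the raw counts of each library. No strand option is stated, and fragments that map to several places or fall on several genes are left out by default. The counts were used as deposited. Gene symbols came from GENCODE release 44, and 4117 gene IDs without a symbol were kept in every fit.

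Ribosomal protein genes and the other lists were chosen with earlier results of these data known. Counts were tested with edgeR 4.0.16 in R 4.3.3 (quasi-likelihood test, TMM scaling, filterByExpr with minimums of 10 and 15 counts), with 1 mean per group, over the 12 libraries of a line (8 residual degrees of freedom) or all 24 (16). A gene was called at a Benjamini-Hochberg adjusted p under 0.05 over all genes tested, with no fold requirement. The SE of a log2 fold change is its absolute value over the root of the F statistic. CPM values are scaled by TMM, within a line for comparisons in it and over all libraries for comparisons of lines and for levels between genes. Ranges and floors rest on counting and cover counting error only; a floor is 3 counts, 0.141 to 0.191 CPM a library. Per comparison, the members named are up to 4 in each direction with the largest change among those that passed and did not overlap, all past 1.5-fold, the paralog pairs, the 5 highest and 5 lowest per kilobase, and up to 2 genes of each other list. Other members in the text were chosen after their values were seen. The scripts were tested on simulated counts.

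Alternatives were DESeq2 1.42.0, RLE size factors, library size alone, no filter, a replicate block, offsets for length, GC, or GC and length (splines of 5 degrees of freedom), fits of only the groups compared, stricter calls, a list without paralogs, and each library left out. Leaving out the 5 libraries that stand apart and using canonical transcript lengths were added after seeing the data. The replicate numbers carry no stated meaning, and the deviations of same-numbered libraries correlated between -0.61 and 0.50 in LNCaP:C42 and between -0.51 and 0.40 in 22Rv1 over 18 pairs each, so the libraries were not paired. No pair of libraries was alike within sampling noise. Figures were drawn with matplotlib 3.10.9. Some genes are not reported here by name.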

Additional observations from a re-analysis of the deposited data

Results flagged for a closer look

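The response to R1881 in siSCR cells was compared between 22Rv1 and LNCaP:C42 by a test of the difference itself (edgeR's quasi-likelihood test over all genes). It differed for 3 of 85 ribosomal protein genes (3.53%), a share below the 16.8% of all genes that differed in either direction. The differences in log2 fold change were 0.74 for RPS27L, 0.48 for RPL26L1 and 0.27 for RPS7. RPS27L fell in LNCaP:C42, with 1 library on which that call depends, and rose in 22Rv1, and the difference held in all fits that left out 1 of the 12 libraries. The difference of RPS7 had an adjusted p just under 0.05 and was lost in all 12 of those fits. Groups of 3 libraries are too small to test single libraries as outliers.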

How the results depend on the processing

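The direction of change held for all 46 results of named members in every fit run, and 39 of them also passed the threshold in every fit. These results were picked for passing in these same counts. They include the differences between lines at baseline, all of which passed in every fit. Those that did not pass in every fit all concern R1881 or siMETTL3, so the results on treatments are less stable than the pooled number. The 7 that did not are RPL26 with R1881 in siMETTL3 22Rv1, RPS27L with R1881 in siSCR LNCaP:C42, RPS7 and RPS23 with siMETTL3 in R1881-treated 22Rv1, RPS7 with siMETTL3 in vehicle 22Rv1 (adjusted p = 0.0942 by edgeR with only the groups compared), and RPL26L1 and RPS7 for the difference of the R1881 response. Counts of called members moved as follows. The share of all genes called moves with the setting too, and is given above for only some of these fits. The counts here and in the next paragraph therefore show how far the number of called members moved. They do not show whether it lay above the background. Requiring a 1.5-fold change left 1 with R1881 in siSCR LNCaP:C42, 0 and 2 in siSCR and siMETTL3 22Rv1, 0 and 5 with siMETTL3 in vehicle and R1881 22Rv1, 24 between lines and 1 for the difference of the R1881 response. An adjusted p under 0.01 left 5 with R1881 in siSCR 22Rv1 and 22 with siMETTL3 in R1881-treated 22Rv1. It also lowered the counts with R1881 in siMETTL3 22Rv1, between lines and for the difference of the R1881 response. In that order, RPL13 (adjusted p = 0.0492 by edgeR's test), RPL36A (0.0294) and RPS7 (just under 0.05) are examples of members lost. With a list of canonical ribosomal proteins in place of the paralogs, R1881 gave 0 and 0 in LNCaP:C42 and 1 for the difference between lines. With R1881 in siSCR and siMETTL3 LNCaP:C42 and siSCR 22Rv1, library size alone gave 5, 5 and 5 (9 for the difference of the R1881 response). No filter gave 5 and 3 with R1881 in LNCaP:C42, 5 and 17 with siMETTL3 in vehicle 22Rv1 and R1881 LNCaP:C42, and 9 and 3 for the interactions in 22Rv1 and LNCaP:C42. DESeq2 gave 3 with R1881 in siMETTL3 LNCaP:C42, 3 with siMETTL3 in R1881 LNCaP:C42 and 1 for the difference of the siMETTL3 response. A GC offset gave 4 with R1881 in siMETTL3 LNCaP:C42, 20 in siSCR 22Rv1, 1 and 2 with siMETTL3 in vehicle and R1881 LNCaP:C42, and 7 and 1 for the differences of the R1881 and siMETTL3 responses. GC and length offsets gave 4 and 6 with R1881 in LNCaP:C42, 4 and 1 with siMETTL3 in LNCaP:C42, 2 in vehicle 22Rv1 and 3 for the difference of the siMETTL3 response, and a length offset 1 with siMETTL3 in R1881 LNCaP:C42. Fitting only the groups compared gave 4 there and 0 with siMETTL3 in vehicle 22Rv1. Without the 5 libraries that stand apart, the counts were 39 and 12 with R1881 in LNCaP:C42, 51 in siSCR 22Rv1, 18 and 55 with siMETTL3 in LNCaP:C42, 20 in vehicle 22Rv1, 13 and 14 for the interactions in LNCaP:C42 and 22Rv1, and 14 for the difference of the R1881 response. The cause of these moves was not tested.

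Leaving out 1 library at a time gave 1 to 7 and 1 to 2 with R1881 in siSCR and siMETTL3 LNCaP:C42, 5 to 28 and 52 to 67 in 22Rv1, 0 to 3 and 0 to 27 with siMETTL3 in LNCaP:C42, 1 to 18 and 20 to 35 in 22Rv1, 0 to 0 and 0 to 2 for the interactions, 51 to 54 between lines, and 1 to 4 and 0 to 0 for the differences of the R1881 and siMETTL3 responses. In fits with a replicate block, the counts were 62 and 13 with R1881 in siMETTL3 and siSCR 22Rv1, 39 with siMETTL3 in R1881 22Rv1, and 40 between lines (17 higher, 23 lower), and the others kept their number. The split between lines was 36 higher and 22 lower with RLE size factors and 37 and 22 with DESeq2. With 3 libraries a group and replicate spreads of up to 0.59 log2 units, differences of RPL26, RPL36, RPL8, RPL41 and RPL36AL in LNCaP:C42 are among the least precise. RPL3L and RPL10L rest on under 100 counts a library.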
